A study of Mus musculus with 20 samples.

Results

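Bard1, Sall4, Sox13, Elane, Baiap2l2, Wdfy1, Myod1 and Obp1a are 8 genes selected on how far their signal fell in Tat-Meth+ brains against Tat-Meth- brains, and they are described here probe by probe. They are 8 of 20972 genes named on the array, which carries 15 probes for them among 55681 in all, matched through the RefSeq identifier that names each probe. Bard1 and Sall4 have 3 probes each, Wdfy1 has 4, and Sox13, Elane, Baiap2l2, Myod1 and Obp1a have 1 each. Since the members were chosen by the Tat-Meth+ against Tat-Meth- difference, their values in any comparison with either of these groups are a description without a test. The only comparison tested for them is Tat+Meth+ against Tat+Meth-.

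RNA from male C57BL/6J mice was hybridised to 20 one-colour arrays, 5 for each of 4 groups. All mice carried a Tet-binding protein under the GFAP promoter, which is active in astrocytes, and all received doxycycline at 100 mg/kg for 7 days, which switches on a TRE-driven gene. Only Tat+ mice also carried the TRE-driven transgene for HIV-1 Tat, so Tat could be made in their astrocytes, and Tat- mice lacked the transgene. Meth+ mice were injected with methamphetamine (Meth) at 2 mg/kg and Meth- mice with 0.9% saline, for 7 days. The labels give the sample as the left hemisphere of perfused brains from mice of 6 to 7 weeks, whereas the study's methods describe dissected caudate putamen, older mice and a Meth challenge in every group before the tissue was taken. Nothing in the labels says more about how the arrays relate to animals than that each is a separate sample, so p-values measure the spread between these samples.

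Values are log2 intensities after each array was brought to a common 75th percentile. A probe counts as detected on an array where the scanner software marked it as well above its local background, which held for 55.3 to 70.9% of probes per array. The 5 Tat-Meth+ arrays lay alone on slide 1, the Tat-Meth- arrays and Tat+Meth+ replicates 1 to 3 on slide 2, and the Tat+Meth- arrays and Tat+Meth+ replicates 4 and 5 on slide 3. In every comparison with Tat-Meth+, slide and group cannot be told apart. On slide 1 the bright corner control spots, which hold no mouse sequence, read 14.66 to 15.06 unscaled log2 units, against 16.80 to 17.42 on the other slides. The spike-in controls did not all differ alike. A bright control read 16.49 to 16.76 against 17.77 to 18.05, and another read 16.57 to 16.7 against 16.62 to 17.06. The brightest read 18.29 to 18.4 against 18.83 to 19.05. Among those of middle intensity, a control read 12.57 to 12.93 against 12.51 to 13.04. Another was lower on slide 1 (10.38 to 10.48 against 10.52 to 11.01) and another higher (9.93 to 10.05 against 9.38 to 9.87). The local background around the members' spots was 16 to 21 intensity units on slide 1 and 15 to 32 elsewhere, and no member spot was saturated. What part these differences have in the falls below was not tested.

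The 8 genes have little in common in their known roles. Bard1 is the partner that BRCA1 needs for its ubiquitin ligase activity in DNA repair. Sall4 and Sox13 are transcription factors, the first best known from embryonic stem cells and germ cells, the second a SoxD family member expressed in embryonic tissues and in parts of the adult body. Myod1 is the master regulator of skeletal muscle fate. Elane encodes neutrophil elastase, a granule protease that is transcribed in neutrophil precursors of the bone marrow. Obp1a encodes an odorant-binding protein secreted by nasal glands. Baiap2l2 is an I-BAR domain protein that bends membranes and is known from inner ear hair cells and epithelia. Wdfy1 is an endosomal protein with a FYVE domain that takes part in Toll-like receptor signalling. Of the 8, Bard1, Wdfy1 and Sox13 are transcribed widely enough that a brain transcript is plausible. Elane, Myod1, Obp1a and Sall4 are not known as transcripts of adult striatum. For Baiap2l2 no judgement is made here.

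The brightest probe of each gene was lower on all 5 Tat-Meth+ arrays than on every Tat-Meth- array, for 8 of 8 genes. Over all 31516 probes tested, 16.2% had all 5 Tat-Meth+ arrays below every Tat-Meth- array, and 10.9% were called lower in Tat-Meth+ by limma (Benjamini-Hochberg adjusted p under 0.05 and over 2-fold) against 0.708% called higher. Since this difference selected the genes, nothing is read from their count. In the order of falls over all tested probes, the 7 brightest probes that were detected on all Tat-Meth+ arrays held places between 9 and 54, and their differences ran from -5.78 to -4.47 log2 units. The Myod1 probe was at background in Tat-Meth+ and has only a bound. None of the other 7 probes of the members was lower on all Tat-Meth+ arrays. Of these 7, 4 were at or near background and give no direction.

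**Figure D1:**
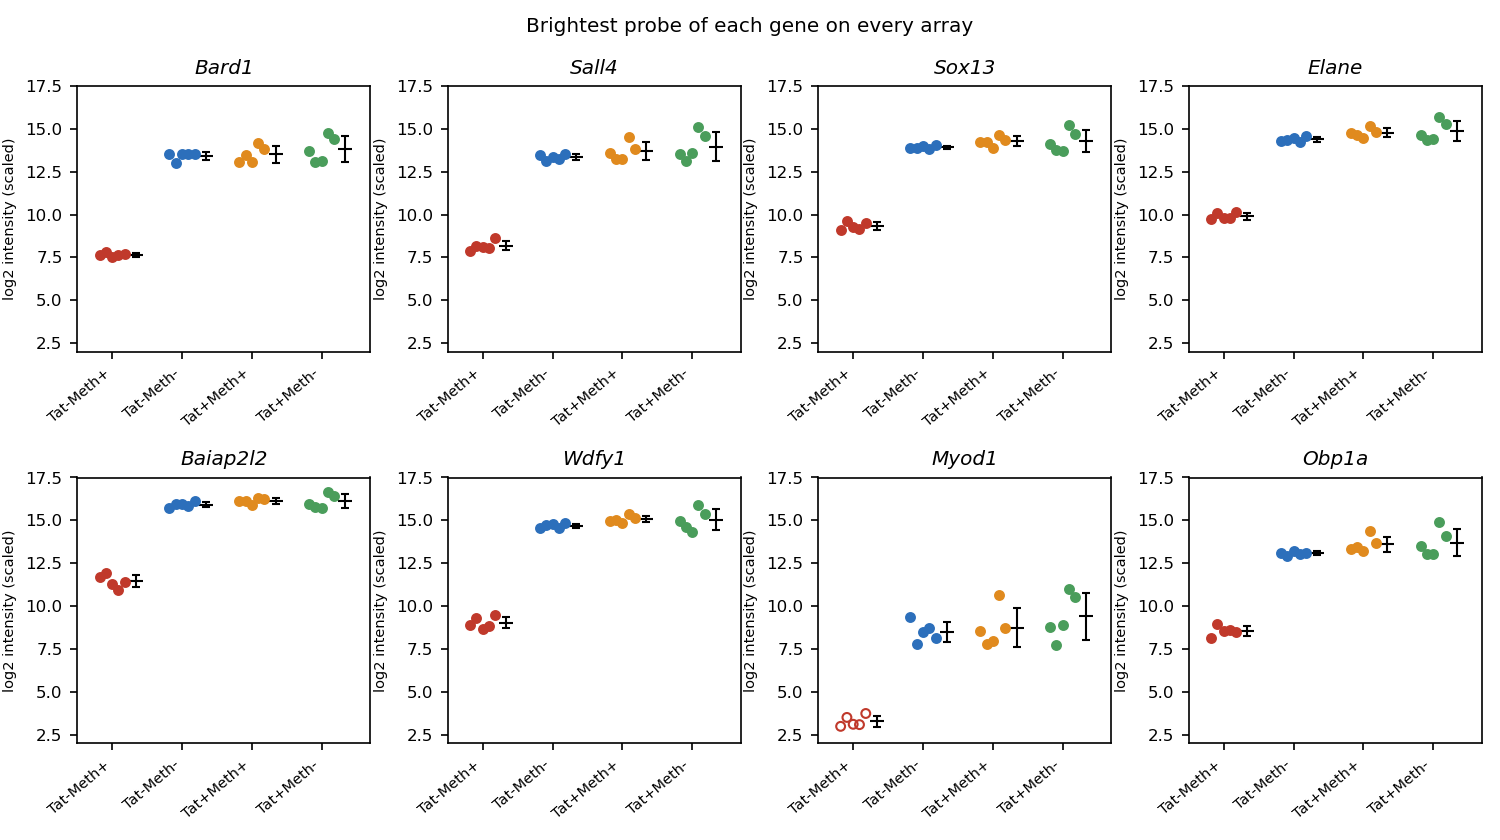
Scaled log2 intensity of the brightest probe of each of the 8 genes (vertical axis) on each of the 5 arrays of the 4 groups (horizontal axis), with the mean and SD beside the points; open points are groups in which no array was well above background. Tat-Meth+ stands apart from the other 3 groups in every panel, and only the Myod1 probe was at background there.

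Bard1 showed the largest fall among the 7 genes whose brightest probe was detected on all Tat-Meth+ arrays. Its second detected probe did not repeat the fall. Probe A_55_P2186644 read 7.66, 7.79, 7.51, 7.61 and 7.68 on the Tat-Meth+ arrays and 13.53, 13.01, 13.56, 13.52 and 13.53 on the Tat-Meth- arrays. The groups lay far apart, with means of 7.65 ± 0.10 and 13.43 ± 0.24 (SD, n = 5), a 54.8-fold difference. The same probe read 13.04, 13.46, 13.08, 14.16 and 13.84 in Tat+Meth+ and 13.69, 13.05, 13.14, 14.77 and 14.43 in Tat+Meth-, so both Tat+ groups lay near Tat-Meth-. It was detected on all 20 arrays. Probe A_55_P2186648, which carries the same RefSeq identifier (NM_007525), was also detected on all 20 arrays. It read 6.64, 7.08, 7.10, 6.77 and 7.33 in Tat-Meth+ and 6.97, 6.92, 6.27, 7.18 and 6.57 in Tat-Meth-, and the ranges overlapped at a difference of 0.20 log2 units, or of -0.22 without scaling between arrays. The third Bard1 probe, A_52_P616404, was detected on 0 of 20 arrays and gives no level.

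Wdfy1 also gave a contrast between probes, but its clearly detected probes that did not fall are assigned to another transcript than the falling one. Probe A_55_P2070686 (NM_027057) read 8.87, 9.31, 8.68, 8.84 and 9.45 in Tat-Meth+ and 14.54, 14.71, 14.79, 14.57 and 14.82 in Tat-Meth-, a 50.5-fold difference. In Tat+Meth+ it read 14.96, 15, 14.87, 15.35 and 15.14, and in Tat+Meth- 14.94, 14.60, 14.34, 15.87 and 15.38. Every array outside Tat-Meth+ was thus above every Tat-Meth+ array by several log2 units. Probe A_55_P2092730 is assigned to another transcript of the gene (NM_001111279) and was detected on all 20 arrays. It read 10.53, 10.57, 11.83, 12.52 and 11.80 in Tat-Meth+ and 11.42, 10.23, 10.10, 11.44 and 11.58 in Tat-Meth-. These ranges overlap, and the Tat-Meth+ mean was the higher by 0.50 log2 units. Probe A_66_P118236, of that same second transcript, read 5.89, 6.22, 7.18, 8.02 and 8.59 in Tat-Meth+ and 7.08, 6.19, 5.82, 7.22 and 7.29 in Tat-Meth-, with a Tat-Meth+ mean higher by 0.46. It was detected on 19 of 20 arrays.

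The pair of NM_001111279 probes moved together over the 20 arrays (r = 0.90, a description over single arrays). Over the 15 arrays outside Tat-Meth+ they did not follow the falling Wdfy1 probe (r = 0.02 and 0.26). The fourth probe, A_52_P511821, carries the identifier of the falling probe and was near background, with detection on 2, 3, 2 and 0 of 5 arrays in Tat-Meth+, Tat-Meth-, Tat+Meth+ and Tat+Meth-. It read 5.36 to 5.98 in Tat-Meth+ and 4.70 to 5.40 in Tat-Meth-, so it does not show the fall at a level that would allow much of one to be seen.

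Sall4 has a single informative probe. A_51_P145260 read 7.90, 8.17, 8.13, 8.05 and 8.61 in Tat-Meth+ and 13.48, 13.13, 13.37, 13.25 and 13.52 in Tat-Meth-, a 36.2-fold difference. In Tat+Meth+ it read 13.61, 13.25, 13.23, 14.55 and 13.84, and in Tat+Meth- 13.52, 13.10, 13.58, 15.08 and 14.56. It was detected on all 20 arrays, also where it was low. The further Sall4 probes, A_51_P349087 and A_55_P2173546, were detected on 0 of 15 arrays outside Tat-Meth+, where the first probe was high. Within Tat-Meth+ the first was detected on 0 arrays and the second on 1, replicate 5, at 6.35 against 2.34 to 3.01 on the other arrays of the group. These probes can neither repeat the fall nor go against it, because they gave no level to fall from.

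**Figure D2:**
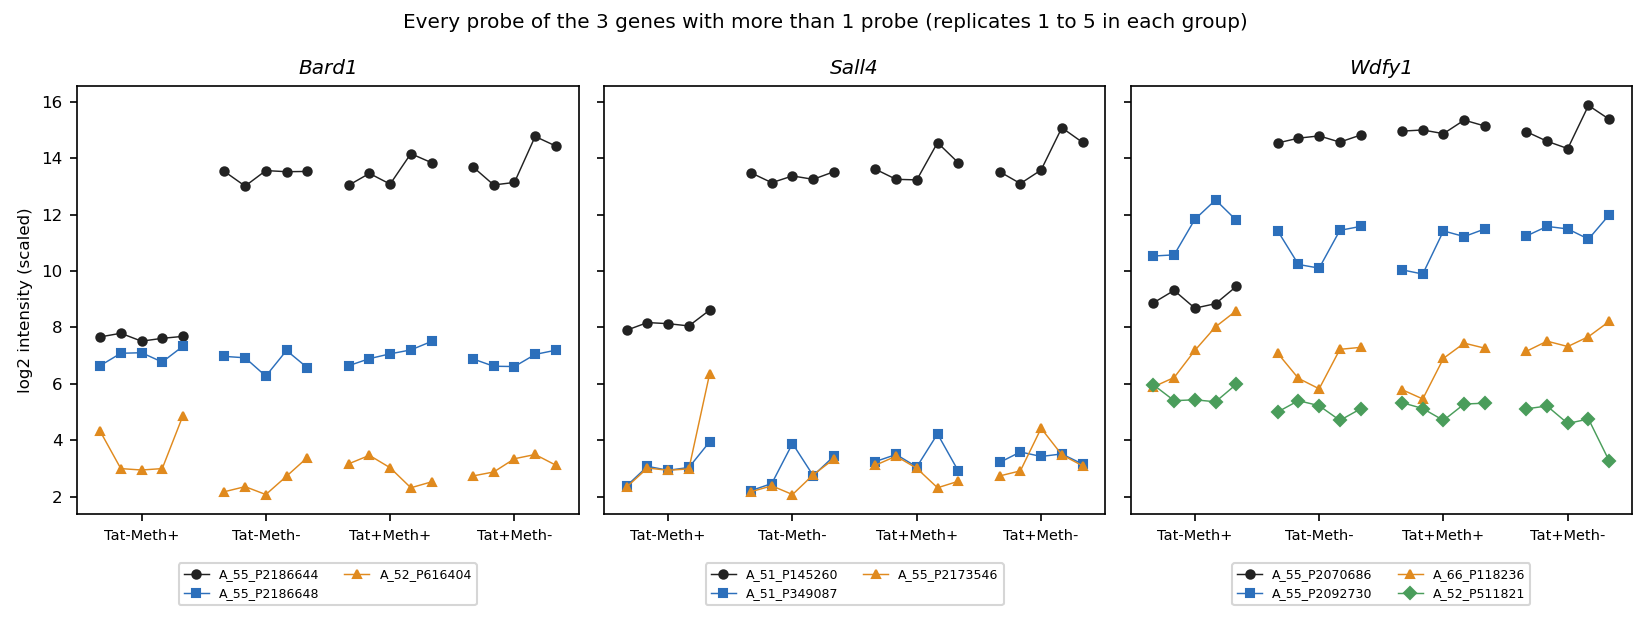
Scaled log2 intensity (vertical axis) of every probe of Bard1, Sall4 and Wdfy1 on the 20 arrays, ordered by group and replicate (horizontal axis), with lines joining the arrays of a group only to help follow a probe. In each gene only the probe drawn in black drops in Tat-Meth+, and the other probes stay within or above their range in the other groups there.

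Myod1 was the only member at background in Tat-Meth+. Its probe, A_51_P351166, is printed as 10 spots on each array, and the mean of its spots was 2.98, 3.50, 3.1, 3.08 and 3.73 in Tat-Meth+, none well above background. In Tat-Meth- it was 9.37, 7.79, 8.48, 8.71 and 8.15, well above background on 5 of 5 arrays, which is at least 9.36-fold higher. This bound sets the Tat-Meth- mean against the higher, on each Tat-Meth+ array, of the probe's own value and the lowest signal of any probe well above background. It holds for this processing only. With normexp background correction the measured difference was smaller than the bound, at -2.2 log2 units. The Tat+ groups read 8.56, 7.80, 7.98, 10.63 and 8.69 with Meth and 8.79, 7.73, 8.88, 11.02 and 10.55 with saline. The 3 highest values, those of Tat+Meth+ replicate 4 and Tat+Meth- replicates 4 and 5, rest on 3, 2 and 4 of the 10 spots, since the software marked the rest as outliers. With all 10 spots the unscaled values on these arrays ran from 10.65 to 11.31, 10.77 to 11.51 and 9.52 to 10.76. Over all 20 arrays the 10 spots of an array differed by 0.66 to 3.03 log2 units. They share 1 probe sequence and are no second probe.

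The 4 remaining genes have 1 probe each, detected on all 20 arrays. Elane (A_66_P137219) read 9.73, 10.08, 9.77, 9.80 and 10.17 in Tat-Meth+ and 14.30, 14.36, 14.44, 14.25 and 14.58 in Tat-Meth-, a 22.3-fold difference. Its Tat+ arrays ran from 14.32 to 15.67, above all Tat-Meth+ arrays. Sox13 (A_55_P2094731) read 9.12, 9.60, 9.28, 9.13 and 9.53 in Tat-Meth+ and 13.88, 13.90, 14.01, 13.83 and 14.04 in Tat-Meth-, a 24.2-fold difference, with Tat+ arrays from 13.69 to 15.21. The SD of Sox13 was 0.22 in Tat-Meth+, 0.09 in Tat-Meth-, 0.28 in Tat+Meth+ and 0.65 in Tat+Meth-. Obp1a (A_55_P1978013) read 8.15, 8.97, 8.52, 8.59 and 8.48 in Tat-Meth+ and 13.12, 12.94, 13.21, 13.04 and 13.11 in Tat-Meth-, a 23.3-fold difference. Baiap2l2 (A_55_P2066548) read 11.67, 11.92, 11.31, 10.96 and 11.40 in Tat-Meth+ and 15.73, 15.94, 15.98, 15.86 and 16.11 in Tat-Meth-, a 22.2-fold difference. This was the smallest fall among the 7 genes detected on all Tat-Meth+ arrays, Myod1 having only a bound. For these 4 genes no further probe can bear on the fall.

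The low values in Tat-Meth+ were lower than those of the Tat+Meth+ mice too, which also received Meth. In Tat+Meth+ the 7 brightest probes detected in both groups exceeded their Tat-Meth+ means by 4.68 (Baiap2l2) to 6.03 (Wdfy1) log2 units, and that of Myod1 was at least 10.99-fold higher. All 8 had every Tat+Meth+ array above every Tat-Meth+ array, as had 16.2% of all tested probes. Both comparisons use the same Tat-Meth+ arrays and are not independent of each other.

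Where Meth was compared with saline among Tat+ mice, whose arrays played no part in the choice, no member passed the test. The fit took its spread from all 20 arrays, those that chose the members included, so the standard errors may be too small for Tat+ mice. The median SD of the 8 brightest probes was 0.28 in Tat-Meth+, 0.14 in Tat-Meth-, 0.36 in Tat+Meth+ and 0.71 in Tat+Meth-. With only the Tat+ groups fitted, limma also called 0 member probes. Of the 15 member probes, 11 reached a mean of 6 in a group and were tested, and limma called 0 of them in Tat+Meth+ against Tat+Meth-. The background was 0% of 31516 probes, with 3624 at an unadjusted p under 0.05 and a smallest adjusted p of 0.109 by limma, so no probe of any gene was called. The difference of Bard1 A_55_P2186644 was -0.30 ± 0.28 (SE, limma adjusted p = 0.716), that of Sall4 -0.27 ± 0.31 (adjusted p = 0.772) and that of Myod1 -0.66 ± 0.56 (adjusted p = 0.677). Sox13, Elane, Baiap2l2, Obp1a and the falling Wdfy1 probe differed by -0.10 to 0.04 log2 units, with standard errors of 0.18 to 0.29. The largest difference among member probes was that of Wdfy1 A_66_P118236, at -1.0 ± 0.49 (adjusted p = 0.447), a probe that did not fall in Tat-Meth+. For the falling Wdfy1 probe the difference was 0.04 ± 0.22 (adjusted p = 0.966). In Tat-Meth+ the 7 brightest probes other than that of Myod1 were lower by over 4 log2 units. Whether the effect of Meth on the members differs between Tat- and Tat+ mice was not tested, since the Tat- side chose them.

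Outside Tat-Meth+, the 8 brightest probes varied together from array to array. Over these 15 arrays their 28 pairwise correlations ran from 0.67 to 0.98, with a median of 0.91 (a description over arrays that share slides). All 8 were highest on Tat+Meth- replicate 4, which was the highest of the 15 arrays for 9.27% of all tested probes and for 23.2% of those called lower in Tat-Meth+. Averaged over the 8 probes, this array lay 1.22 log2 units above the probe means, Tat+Meth- replicate 5 lay 0.75 above and Tat+Meth+ replicate 4 lay 0.72 above, while the other 12 arrays lay between -0.51 and 0.14. All 3 high arrays were on slide 3. The other arrays of slide 3 were not high, from -0.51 (Tat+Meth- replicate 2, the lowest of the 15) to 0.14 (Tat+Meth+ replicate 5). Within Tat+Meth+, both arrays of slide 3 were above the 3 of slide 2 for all 8 probes, as for 9.73% of tested probes. Within slide 3, Tat+Meth+ exceeded Tat+Meth- by 0.15 (Elane and Baiap2l2) to 0.30 (Obp1a) log2 units for the 8 probes, where the whole groups differed by -0.66 to 0.04. The detected Bard1 probe that did not fall followed the falling one less closely (r = 0.46 over the 15 arrays).

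**Figure D3:**
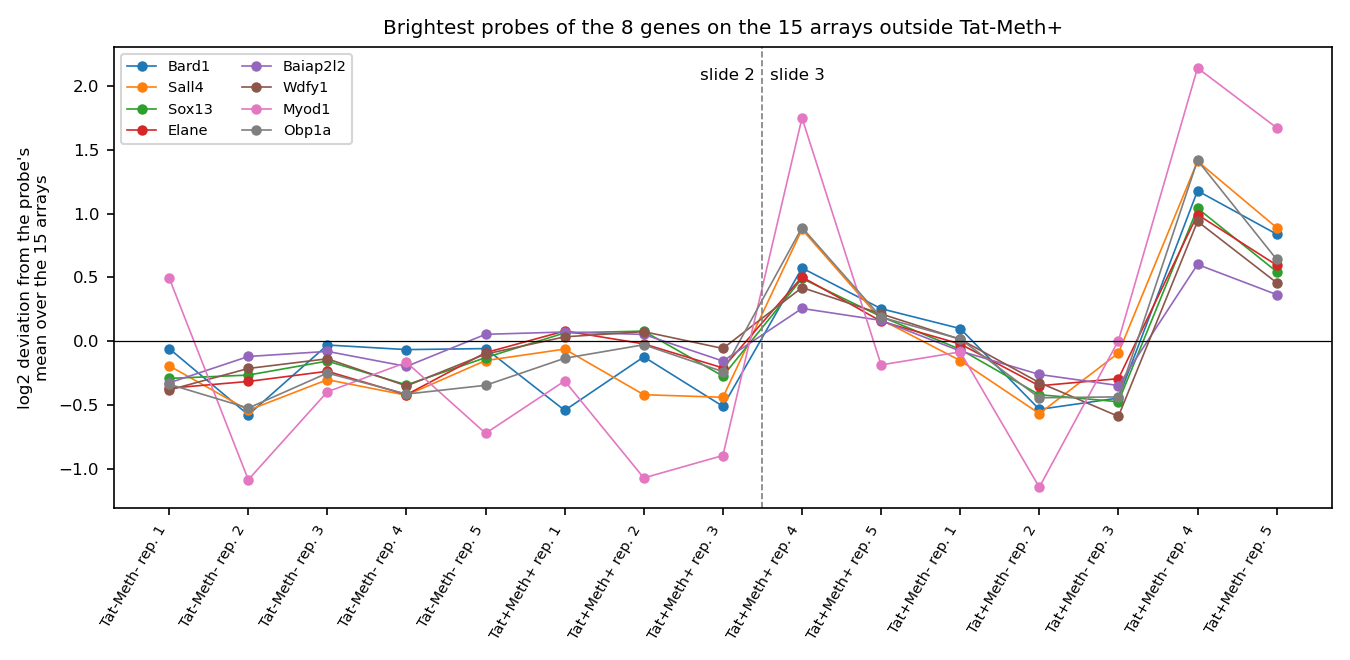
Deviation of the brightest probe of each gene from its own mean over the 15 arrays outside Tat-Meth+ (vertical axis, log2 units), array by array (horizontal axis), with the change of slide marked and lines joining arrays only to help follow a gene. The 8 genes peak together on Tat+Meth+ replicate 4 and on Tat+Meth- replicates 4 and 5. These are all of slide 3, whose other arrays lie lower, and Myod1 has the widest swing.

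Genes whose brightest probes followed the members most closely were sought over all 20 arrays. The 3 highest correlations for each member ran from 0.990 to 0.999, a size set mostly by the gap between Tat-Meth+ and the rest, and from 0.87 to 0.99 over the 15 other arrays. Krtap5-5, a hair keratin-associated protein gene, was among the first 3 for Bard1, Sall4, Sox13, Elane and Obp1a. Sox13 and Elane were each other's neighbours and stood among the first 3 of Bard1 and Wdfy1, and Wdfy1 was the first neighbour of Baiap2l2. The other neighbours were Bmp1 and Msi1 for Sall4, Slc45a3 for Sox13 and Elane, Zglp1 and Arl4c for Baiap2l2, Apobec3 for Wdfy1, the olfactory receptor gene Olfr1350 with AW551984 and Tbx10 for Myod1, and 6430584L05Rik with Catsperd for Obp1a.

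The single falling probe in Bard1 and Wdfy1 was the usual case on these arrays. Of 248 genes with at least 2 tested probes and at least 1 called lower in Tat-Meth+ against Tat-Meth-, 225 (90.7%) had exactly 1 probe called lower, and 16 (6.45%) had all of them. Bard1 and Wdfy1 are among the 248. Since 10.9% of all tested probes were called lower, most such genes would have 1 called probe even if their probes were unrelated. Nothing about probe disagreement is read from this share. Counting only probes detected on all 5 Tat-Meth- arrays, the shares were 212 and 16 of 235 genes. By measured means, falls of more than 4 log2 units were found in 7 genes with at least 2 tested probes, of which 5 had 1 probe called: Bard1, Wdfy1, Bmp1, Pde10a and Pgc. The falling probes of Pde10a, Pgc and Krtap19-5 were detected on 0, 2 and 4 of 5 Tat-Meth+ arrays, so the sizes of these falls rest partly on values at background. In Krtap19-5 and Krtap5-5 a second probe was called, at -1.75 and -2.14 log2 units. Pde10a, singled out after its values were seen because it is a defining gene of striatal medium spiny neurons, shows the disagreement within a gene of this tissue. Its probe A_55_P2000379 ran from 4.49 to 5.23 in Tat-Meth+, not well above background, and from 9.40 to 9.63 in Tat-Meth-, at least 18.9-fold higher. The other Pde10a probes, under the same RefSeq identifier, were detected on all 20 arrays and differed by 0.12 and 0.22 log2 units, with overlapping ranges.

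Companions of each member, that is genes of its complex, family or tissue, were looked up for detection and for their own change. Of 81 companion genes in 8 lists, 78 had a probe and 50 were tested in Tat-Meth+ against Tat-Meth-. Limma called 5 of the 50 lower and 0 higher. When each gene was likewise taken by its brightest probe, 6.48% of 15102 probes were called lower, and nothing particular to the lists is read from the difference. The median difference of the 50 was 0.18 log2 units beside 0.10 over all tested probes. At the adjusted p alone, 16 were higher and 8 lower, but without scaling between arrays 0 were higher and 18 lower, so the direction of the small differences is not settled. In Tat+Meth+ against Tat+Meth-, 0 of the 50 were called, with a median of 0.01 log2 units.

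Among the companions of Bard1, Uimc1, which encodes the ubiquitin-binding subunit of the BRCA1-A complex, was called lower. It ran from 2.36 to 5.01 in Tat-Meth+, well above background on 0 arrays, and from 8.30 to 9.02 in Tat-Meth-, well above background on 5, at least 9.91-fold higher (limma adjusted p = 1.6e-09). The study also lists Uimc1 among its strongest falls on these arrays, and the companion lists were chosen with earlier results known. The call of Uimc1 is therefore no independent result. The other members of the BRCA1-A complex were not called, and Abraxas1, Babam1, Babam2 and Brcc3 differed by 0.06 to 0.53 log2 units. Brca1 itself was detected on 1 of 20 arrays and Brip1 on 0, while Brca2, Rbbp8 and Bap1 were detected on all 20. Brca1 was not detected on any of the 15 arrays on which Bard1 probe A_55_P2186644 read high, while the second detected Bard1 probe read 6.27 to 7.5 there.

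The companions of Sall4 held 2 called genes. Lin28a, an RNA-binding protein of stem cells, fell from 12.17 ± 0.14 in Tat-Meth- to 9.04 ± 0.26 in Tat-Meth+ (limma adjusted p = 1.1e-07), and Utf1, a chromatin factor of embryonic stem cells, from 10.57 ± 0.18 to 7.67 ± 0.15 (adjusted p = 1.3e-06; SD, n = 5). Of the other pluripotency genes, Nanog, Sox2, Dppa5a and Tdgf1 were detected on all 20 arrays, Dppa4 on 6, and Pou5f1 and Zfp42 on 1 each. The 6 detections of Dppa4 were 4 in Tat-Meth- and 2 in Tat+Meth+. Tdgf1 differed by -0.99 log2 units (limma adjusted p = 0.0014), short of the 2-fold limit, and was called with quantile scaling, without scaling and with slide as a random block. Sall1, Sall2 and Sall3 were detected on all 20 arrays and were not called. They differed by 0.59 (limma adjusted p = 3.6e-06), 0.27 and 0.28 log2 units, all toward Tat-Meth+. None of the 8 Sox genes, with Sox5 and Sox6 as the closest relatives of Sox13, was called, and all 8 were detected on every array. The differences of Sox5 and Sox6 were -0.43 and 0.45 log2 units.

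For Elane, no neutrophil gene was called among the 5 tested of 10. Prtn3, Ctsg and Camp, granule genes, and S100a9 were detected on all 20 arrays, with differences of -0.19 to 0.79 log2 units. Ngp, Ltf, Mmp8 and Cebpe were each detected on 1 array of 20, and Mpo, the granule peroxidase of the same precursors, on 8. For Myod1, the other myogenic factors were at or near background: Myf5 was detected on 0, Myog on 3 and Myf6 on 1 of 20 arrays. So were Des and Ckm, detected on 2 and 1 arrays, and Mylpf on 0. Pax7, the factor of muscle stem cells, ran from 2.55 to 4.09 in Tat-Meth+ and 6.54 to 6.93 in Tat-Meth-, at least 2.78-fold higher in Tat-Meth- (limma adjusted p = 5.4e-07), a call that was lost with normexp background correction. Pax7 was detected on 12 of 20 arrays, Tnnt3 on 10 and Pax3 on 9. In the order Tat-Meth+, Tat-Meth-, Tat+Meth+ and Tat+Meth-, Pax3 was detected on 0, 4, 3 and 2 arrays and Myog on 0, 2, 1 and 0. Acta1 was detected on all 20 arrays at a difference of 0.29.

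For Obp1a, 8 of 10 nasal genes had a probe and 1 was tested. Omp, the olfactory marker protein, fell from 7.08 ± 0.22 to 6.03 ± 0.49 (SD, n = 5, limma adjusted p = 0.00018), with 4 of 5 Tat-Meth+ arrays below every Tat-Meth- array. Its call was lost with quantile or median scaling, with normexp background correction and on the deposited value table. Obp2a, Lcn4 and Bpifa1 were detected on 0 of 20 arrays. For Baiap2l2, none of 8 tested genes was called, and its relative Baiap2, a synaptic I-BAR protein, differed by -0.03 log2 units. For Wdfy1, none of 7 tested genes was called. Of these, Nfkb1 was the furthest down at -0.61 log2 units (limma adjusted p = 1.6e-05), short of the 2-fold limit, and was called without scaling. Ticam1, the adaptor that Wdfy1 is known to recruit, differed by 0.00.

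**Figure D4:**
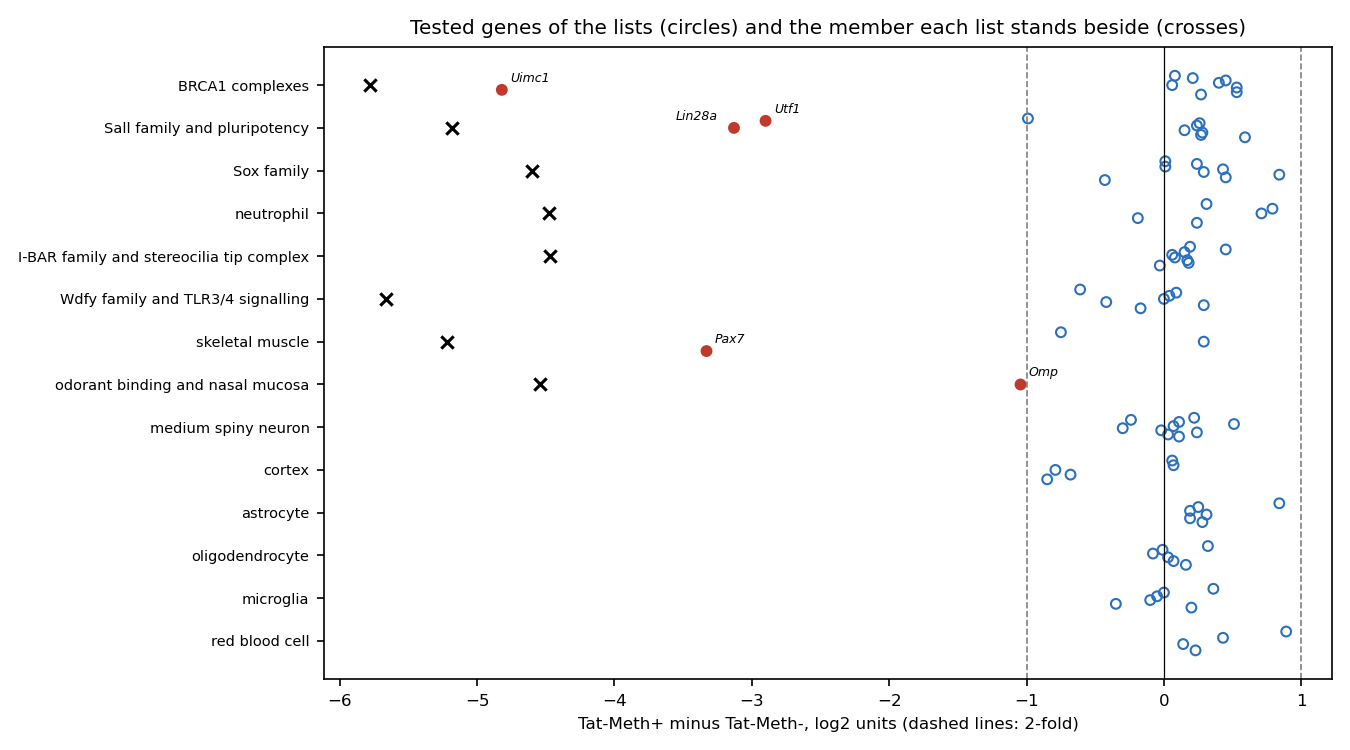
Difference between Tat-Meth+ and Tat-Meth- in log2 units (horizontal axis) for the brightest probe of each tested gene of the 8 companion lists and 6 tissue lists (rows). Filled circles are called by limma, open circles are not, and crosses are the selected gene each list stands beside, with Myod1, Uimc1 and Pax7 drawn at measured means although they were at background in Tat-Meth+. The 5 called genes and the 8 crosses lie left of the 2-fold line, and the tissue lists lie between the lines.

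The markers of striatum and of brain cell types were present in all groups. All 10 genes of medium spiny neurons, among them Drd1, Drd2 and Ppp1r1b, were detected on all 20 arrays, as were all 6 genes each of astrocytes, oligodendrocytes and microglia and the 4 of red blood cells with a probe. In Tat-Meth- the medium spiny neuron genes averaged 11.27 (Drd2) to 18.28 (Penk). The means there were 15.93 for Baiap2l2, 14.39 for Elane, 13.35 for Sall4, 13.08 for Obp1a and 8.5 for Myod1. Whether these probes report their named genes was not tested. Of the cortical genes, Slc17a7 was detected on 18 of 20 arrays. In Tat-Meth+ against Tat-Meth-, 0 of 37 tested tissue genes were called, and the median difference was 0.11 log2 units. The red blood cell gene Alas2 differed by 0.89 log2 units (limma adjusted p = 0.0502) and was not called. With median scaling Alas2 was called higher. In arrays of whole tissue, fewer cells of a type and less RNA per cell cannot be told apart.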

How the data were processed

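The authors deposited 1 scanner file per array with spot intensity values (cy3, Agilent Feature Extraction 10.7.3.1, array design built on mm9), background-subtracted and detrended by the software, and a value table of intensity that matches the background-subtracted signal plus a constant per array for 99.8 to 100% of single-spot probes. Each array has 62976 spots, 3671 of them controls. The methods of the study describe another dye and scanner. From these files, the processed signal was used, 4278 outlier spots were left out, replicate spots were averaged as log2 values, and arrays were scaled to their 75th percentile (a difference of at most 0.7 log2 units). Probes were named through their RefSeq identifier (27656 of 55681 probes, 20972 symbols; names from an annotation of a later build, no coordinates). Probe sequences were not used here.

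Limma 3.58.1 (R 4.3.3) was fitted with group means over all 20 arrays, on probes with at least 3 values per group and a mean of 6 in at least 1 group. A call needed a Benjamini-Hochberg adjusted p under 0.05 over all tested probes and over 2-fold. The fit was tested on simulated data. The number of arrays limits the precision. The brightest probe by mean over all arrays stood for a gene in lists. Every member probe is named, list genes where called or where detection turned on them, and the 3 genes most correlated with each member. The members and the lists were chosen with earlier results of these data known. Numbers 1 to 5 follow the labels and do not show pairing: deviations of same-numbered arrays correlated at -0.14 to 0.31 (30 pairs, median 0.06). The alternatives were other background corrections, scalings, filters, limits and samples, slide and replicate number as blocks, and a t-test. Some list genes are not reported here but stay in the counts over their lists.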

Additional observations from a re-analysis of the deposited data

Results flagged for a closer look

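In 2 of 60 sets of 5 arrays (15 probes in 4 groups) the highest or lowest array stood apart from the others of its group by more than 0.71 of the range (Dixon's limit for 5 values); chance flags about 1 set in 20. Bard1 A_55_P2186644 read 13.01 on Tat-Meth- replicate 2 against 13.52 to 13.56 on the other 4 arrays, a gap that is small beside its distance from the Tat-Meth+ arrays. Sall4 A_55_P2173546 read 6.35 on Tat-Meth+ replicate 5 against 2.34 to 3.01, the only array on which this probe was well above background. That array also had the largest share of probes well above background of all 20 (70.9%).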

How the results depend on the processing

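The 8 brightest probes had no overlap between Tat-Meth+ and Tat-Meth- under normexp, quantile, median or no scaling, and on the deposited value table. The same held with each array left out, with 8 to 8 such probes. Each of the 7 other probes overlapped throughout. In the main setting, 16.2% of all tested probes had every Tat-Meth+ array below every Tat-Meth- array. Since this difference selected the genes, nothing is read from these counts. The differences of the 8 brightest probes kept their sign, while that of Bard1 A_55_P2186648 turned from 0.20 to -0.22 without scaling. Myod1, at background in Tat-Meth+, has only a bound, and its measured difference ran from -5.64 with no scaling to -2.2 with normexp. No member was called in Tat+Meth+ against Tat+Meth- under any alternative (0 to 0 on leaving out an array), the replicate block included (0 members, 0 list genes and 0 probes; in Tat-Meth+ against Tat-Meth- the block gave 3646 probes and 5 list genes), nor on leaving out the 3 high arrays together, an alternative chosen after seeing the data. With slide as a fixed block Tat-Meth+ had no value, and the random slide block had a correlation of -0.059.

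In Tat-Meth+ against Tat-Meth-, 3651 probes were called, 1034 with only the brightest probe per gene (fewer were tested), 5614 with no filter, 5598 with no scaling, 1831 with normexp, 15840 without the 2-fold limit and 1763 at adjusted p under 0.01 and 3-fold. Without 1 array they ranged from 3528 to 4005. In Tat+Meth+ against Tat-Meth+, 3795 were called, and 1091, 1773, 16861 and 1855 with the brightest probe, normexp, no 2-fold limit and the stricter limits (3661 to 4228 without 1 array). In Tat+Meth+ against Tat+Meth-, 0 were called, 32 by the methods' t-test unadjusted at 2-fold, and 0 to 1 without 1 array, the 1 being without Tat+Meth- replicate 2. The 5 list genes called in Tat-Meth+ became 8 with no filter, 3 with normexp and 34 without the 2-fold limit (5 to 6 without 1 array). With no filter Dppa4, Myog and the nasal gene Cyp2g1 were also called lower. Uimc1, Lin28a and Utf1 were called with normexp. In Tat+Meth+ against Tat+Meth- the count of list genes was 0 (0 to 0 without 1 array), and 1, S100a9, by the unadjusted t-test. The share of genes with exactly 1 probe called lower was 89.3 to 90.9% without 1 array. Without scaling the median of all tested probes moved by -0.43 log2 units, and by 0.12 with median scaling. Where no other cause is given, the cause was not tested.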
